A study of Mus musculus with 6 samples.

Results

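The genes described here are the fractalkine receptor *Cx3cr1*, its ligand *Cx3cl1*, *Fcrls*, and 6 further genes known as markers of microglia, the resident macrophages of the brain: *Gpr34*, *P2ry12*, *P2ry13*, *Tmem119*, *Olfml3* and *Slc2a5*. They are 9 of the 54309 mouse gene identifiers measured by bulk RNA sequencing of MCA205 tumors, and 8 of them had a mean of at least 10 normalized counts (reads divided by the tumor's size factor), the level needed to enter a test. They were chosen by name with earlier results of these same tumors in view, above all the low *Cx3cr1* and *Fcrls* values after FF-10101. The difference between the groups in these 9 genes is therefore given as a description, without a p value, and the number of them past a threshold is given beside the share of all genes and is no test of them.

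MCA205 is a transplantable fibrosarcoma line, grown under the skin of female C57BL/6J mice used at an age of 7 weeks. FF-10101 is an irreversible inhibitor of the receptor tyrosine kinases FLT3 and CSF1R, and CSF1R signaling sustains many tissue macrophages. The FF-10101 group (3 tumors) had the compound in the drinking water at 0.1 mg/mL from day 1 to day 8, the control group (3 tumors) had milliQ water, and every tumor was taken on day 8. The groups differed in treatment and not in genotype. A p value in this design compares the difference between the groups with the spread between the tumors within them. The comparison asks which macrophage genes differed under FF-10101 during tumor growth. It cannot tell the inhibition of CSF1R from that of FLT3.

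CX3CR1 is a chemokine receptor of monocytes, many resident macrophages, microglia and some cytotoxic lymphocytes. Its ligand CX3CL1, or fractalkine, is made by endothelial, epithelial and stromal cells as a membrane-bound adhesion molecule from which proteases release a soluble chemokine. *Fcrls*, *P2ry12*, *Tmem119* and *Olfml3* are used to tell microglia from blood-derived macrophages, but subcutaneous tumors hold no brain tissue. In whole tumors, fewer cells of a type and less RNA per cell cannot be told apart.

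The label of microglia-like genes held only in part. The microglial identity factor *Sall1* was listed with 1, 4 and 1 reads in the control tumors and 0 in each FF-10101–treated tumor. Of 5 neural markers, the astrocyte gene *Gfap* and the neuronal gene *Snap25* had at most 1 read in any tumor. The other neural markers had more, with 0 to 6 reads per tumor for *Slc1a2*, 3 to 13 for *Syt1* and 118 to 527 for *Mbp*. *Slc2a5* had 1 read in all 6 tumors together. The 9 genes are therefore called by their names below, and no microglia-like cell type is claimed for these tumors.

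The tumors had 9143806 to 9643535 reads in the control group and 9277019 to 13258258 in the FF-10101 group. Control tumor 1 stood apart from the other control tumors. Its mean log2 level over 12 pan-macrophage markers, log2(normalized count + 1), was 12.06, against 11.23 and 11.16 in control tumors 2 and 3 and 10.82, 11.38 and 11.44 in FF-10101 tumors 1, 2 and 3. With all 6 tumors, 6 of 13963 genes passed an adjusted p of 0.05 (limma with Benjamini-Hochberg adjustment). Without control tumor 1 it was 3051, so many results are also given without that tumor.

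Of the 8 genes with enough reads, 6 had each FF-10101–treated tumor below all control tumors, *Cx3cl1* had each treated tumor above them, and *Olfml3* overlapped between the groups. Over all genes tested, 9.37% were lower and 10.9% higher without overlap, but since the genes were selected on this contrast nothing is read from that comparison. A single gene of the 8, *Cx3cr1*, passed an adjusted p of 0.05 with all 6 tumors, where 0.0143% of all genes passed as lower and 0.0286% as higher. The same gene was the one called by limma-voom on the reads, which called 0.0358% of all genes in either direction. Without control tumor 1, 5 of the 8 passed, where 21.9% of all genes passed in either direction and 9.88% as lower. These were *Cx3cr1*, *Fcrls*, *Gpr34* and *P2ry12* as lower and *Cx3cl1* as higher. Without control tumor 2, 0 of the 8 passed, and 1 of all genes did. As the genes were chosen with this contrast known, these counts describe the fit and nothing is read from them.

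**Figure D1:**
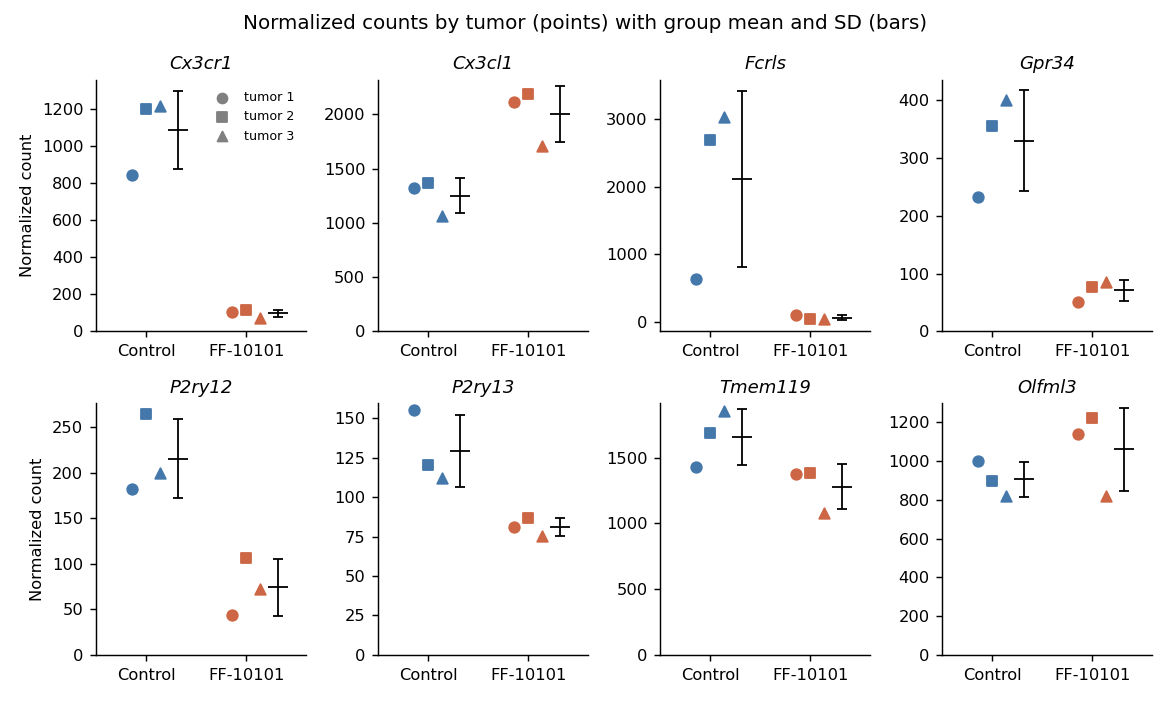
Normalized counts of the 8 genes in each tumor (points, with the shape giving the replicate number) for the control and FF-10101 groups, on linear axes that differ between genes. Bars give the group mean and SD (n = 3). The *Cx3cr1* points of the treated tumors lie between 73.8 and 114 and those of the control tumors between 845 and 1219, while the *Olfml3* points of the groups overlap.

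The gene start regions of 4 genes are shown because their values differed most among those with a sequence at hand: *Cx3cr1*, *Fcrls* and *P2ry12* as the lowest relative to control, and *Cx3cl1* as the gene that was higher. RefSeq promoter sequences (GRCm38.p6) were matched for 7 of the 9 genes, not for *Gpr34* and *Tmem119*, and run from 250 bases before to 50 bases after the start of each gene. The macrophage transcription factor PU.1 binds purine-rich PU boxes, and the 6 letters GAGGAA were searched on both strands and are in capitals (TTCCTC where the box lies on the other strand). *Cx3cr1* is at chr9:120068247-120068546 on the minus strand, *Fcrls* at chr3:87263475-87263774 on the minus strand, *P2ry12* at chr3:59262936-59263235 on the minus strand and *Cx3cl1* at chr8:94771930-94772229 on the plus strand.
Cx3cr1: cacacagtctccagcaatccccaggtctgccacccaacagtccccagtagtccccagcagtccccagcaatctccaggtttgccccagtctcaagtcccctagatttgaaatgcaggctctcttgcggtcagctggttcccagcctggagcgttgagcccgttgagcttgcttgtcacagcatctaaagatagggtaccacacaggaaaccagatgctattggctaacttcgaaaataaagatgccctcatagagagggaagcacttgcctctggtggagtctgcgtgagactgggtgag
Fcrls: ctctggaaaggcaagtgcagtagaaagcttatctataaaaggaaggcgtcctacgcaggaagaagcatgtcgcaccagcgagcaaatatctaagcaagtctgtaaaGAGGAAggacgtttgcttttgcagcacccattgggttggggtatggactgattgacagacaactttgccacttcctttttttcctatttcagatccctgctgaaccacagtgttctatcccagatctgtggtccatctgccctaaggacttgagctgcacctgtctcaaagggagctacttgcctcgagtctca
P2ry12: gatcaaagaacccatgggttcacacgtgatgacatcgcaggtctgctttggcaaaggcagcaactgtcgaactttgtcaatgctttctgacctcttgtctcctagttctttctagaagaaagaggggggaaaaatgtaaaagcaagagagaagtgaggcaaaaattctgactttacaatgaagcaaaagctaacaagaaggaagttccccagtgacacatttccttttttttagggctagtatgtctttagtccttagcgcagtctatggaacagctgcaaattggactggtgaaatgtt
Cx3cl1: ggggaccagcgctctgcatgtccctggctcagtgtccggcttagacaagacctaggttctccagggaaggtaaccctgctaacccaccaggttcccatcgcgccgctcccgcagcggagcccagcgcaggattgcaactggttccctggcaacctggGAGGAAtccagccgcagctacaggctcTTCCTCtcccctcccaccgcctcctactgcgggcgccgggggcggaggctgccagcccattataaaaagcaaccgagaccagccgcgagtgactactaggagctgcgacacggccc

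These letters were found in 3 of the 7 sequences. *Fcrls* holds 1 match that begins at base -144 from its start, and *P2ry13* holds 1 at base -48. *Cx3cl1* holds 1 match at base -93 and 1 on the other strand at base -66. *Cx3cr1*, *P2ry12*, *Olfml3* and *Slc2a5* hold none in this window. Of all 32851 promoter sequences of this length, 28.3% hold the letters, and here they occur both in genes that were lower and in the gene that was higher.

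*Cx3cr1* (ENSMUSG00000052336) was 11.3-fold lower in the FF-10101–treated tumors. It had 845, 1199 and 1219 normalized counts in control tumors 1, 2 and 3 and 102, 114 and 73.8 in FF-10101 tumors 1, 2 and 3. The highest treated tumor lay far below the lowest control tumor, and control tumor 1 was the lowest of the control tumors. The means were 1088 ± 210.1 and 96.4 ± 20.6 (SD, n = 3 each), so 8.87% of the control level was left. The log2 fold change was -3.49 with a standard error (SE) of 0.23, and leaving out any 1 tumor gave -3.66 to -3.31. By the annotation, 78 of its 4505 exon bases lie opposite *Gm33858*, a gene with at most 2.25 normalized counts in any tumor.

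*Cx3cl1* (ENSMUSG00000031778), which encodes the chemokine that binds CX3CR1, had the opposite sign. It had 1317, 1365 and 1066 normalized counts in the control tumors and 2112, 2184 and 1704 in the FF-10101–treated tumors, in the order of their numbers. Every treated tumor was above every control tumor, and tumor 3 was the lowest of its group in both. The means were 1249 ± 161 and 2000.0 ± 259 (SD, n = 3 each), and the log2 fold change was 0.68 (SE 0.17), or 0.57 to 0.79 if any 1 tumor was left out. The receptor and ligand transcripts thus differed in opposite directions in the same 6 tumors.

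*Fcrls* (ENSMUSG00000015852), an Fc receptor-like scavenger receptor gene of the mouse, had the largest difference of the 9 genes and also the widest spread. Its normalized counts were 630.4, 2685 and 3025 in control tumors 1, 2 and 3 and 100.0, 40.2 and 49.8 in FF-10101 tumors 1, 2 and 3. Control tumor 1 was far below the other control tumors, yet above each treated tumor, so the groups do not overlap. The means were 2114 ± 1296 and 63.3 ± 32.2 (SD, n = 3 each), a 33.4-fold difference. The log2 fold change was -4.86 (SE 0.60), -5.58 without control tumor 1, and no higher than -4.45 with any tumor left out. Its exons overlap no other annotated gene, and none of its 31-base stretches occurs in a transcript of another gene.

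The 3 G protein-coupled receptors of purines and lysophospholipids were lower by different amounts. *Gpr34* (ENSMUSG00000040229), a receptor for lysophosphatidylserine, had 233, 356 and 402 normalized counts in the control tumors and 50.4, 76.0 and 85.3 in the FF-10101–treated tumors. Each treated tumor was below each control tumor, and tumor 1 was the lowest of its group in both. The means of 330.3 ± 87.2 and 70.6 ± 18.1 (SD, n = 3 each) are 4.68-fold apart. The log2 fold change was -2.21 (SE 0.29), and it was -2.44 when control tumor 1 was left out.

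*P2ry12* (ENSMUSG00000036353), the ADP receptor that guides microglial processes and also acts in platelet aggregation, had 182, 265 and 199.7 normalized counts in the control tumors and 44.3, 106 and 72.0 in the FF-10101–treated tumors. FF-10101 tumor 2 came nearest to the control group without reaching it. The means were 216 ± 43.7 and 74.2 ± 31.1 (SD, n = 3 each), a 2.91-fold difference. The log2 fold change was -1.60 (SE 0.34), and leaving out any 1 tumor gave -1.90 to -1.27. Of 6 platelet markers, *Gp9*, *Gp6* and *Tubb1* had at most 3 reads in any tumor. *Itga2b*, the integrin αIIb gene, had 40.7 ± 13.9 normalized counts in the control and 68.3 ± 5.68 in the FF-10101–treated tumors (SD, n = 3 each). *Ppbp* went the other way in mean, with 16.1 ± 23.2 and 6.65 ± 5.26 (SD, n = 3 each) and 42.8 in control tumor 1. The summed level of the 6 markers was 39.1 to 107 in the control and 77.1 to 88.0 in the FF-10101–treated tumors, and the part of platelets in the *P2ry12* values was not tested.

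*P2ry13* (ENSMUSG00000036362), a second ADP receptor gene, differed least of the 3. Its normalized counts were 155, 121 and 112 in the control tumors and 81.0, 86.8 and 75.6 in the FF-10101–treated tumors. The groups do not overlap, and here control tumor 1 was the highest control tumor, unlike for *Cx3cr1*, *Fcrls*, *Gpr34* and *P2ry12*, where it was the lowest. The means were 129 ± 22.9 and 81.1 ± 5.65 (SD, n = 3 each). The log2 fold change was -0.65 (SE 0.22), and -0.52 if control tumor 1 was left out.

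*P2ry12* and *P2ry13* lie within the gene *Med12l* on the strand opposite to it, together with the receptor genes *P2ry14* and *Gpr171*. These neighbors did not share a direction, with log2 fold changes of -1.60 for *P2ry12*, -0.65 for *P2ry13*, 1.12 for *P2ry14* and 1.39 for *Gpr171* (SE 0.34, 0.22, 0.56 and 0.38). *P2ry14* and *Med12l* are given for their place in the genome, chosen after their values were seen. *Med12l* itself had 24.8, 14.1 and 1.11 normalized counts in the control tumors and 38.2, 32.6 and 33.8 in the FF-10101–treated tumors, lower than *P2ry12* in the same tumor throughout. The strand setting of the reads is not given in the sources used here, and 9 of the 2546 exon bases of *P2ry12* lie opposite an exon of *Med12l*.

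*Tmem119* and *Olfml3* were abundant in both groups. *Tmem119* (ENSMUSG00000054675), a membrane protein gene of microglia that is also active in bone-forming and other mesenchymal cells, had 1427, 1689.8 and 1856 normalized counts in the control tumors and 1373, 1387 and 1081 in the FF-10101–treated tumors. The groups do not overlap, but control tumor 1 and FF-10101 tumor 2 were close to each other. The means were 1658 ± 216 and 1280.5 ± 173 (SD, n = 3 each). The log2 fold change was -0.37 (SE 0.17), and -0.48 if control tumor 1 was left out.

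*Olfml3* (ENSMUSG00000027848), which encodes a secreted olfactomedin-domain protein of microglia and of mesenchymal and vascular cells, had 1001, 897 and 822 normalized counts in the control tumors and 1139, 1225 and 819.5 in the FF-10101–treated tumors. The highest value and the lowest value were both in the treated group. The means were 906 ± 89.8 and 1061 ± 214 (SD, n = 3 each), and the log2 fold change of 0.21 (SE 0.19) was 0.097 to 0.39 if any 1 tumor was left out. Of the 31-base stretches of *Olfml3* and *Cx3cr1*, 1.54% and 3.28% also occur in transcripts of other genes, so a small share of their reads is uncertain.

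*Slc2a5* (ENSMUSG00000028976), the fructose transporter gene used as a microglia marker, had 0, 1 and 0 reads in the control tumors and 0 reads in each FF-10101–treated tumor. With 0 reads, up to 3 are still possible, which equals 2.29 to 3.38 normalized counts across the tumors and covers counting error only. No difference was detectable at this depth, and no fold is given.

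**Figure D2:**
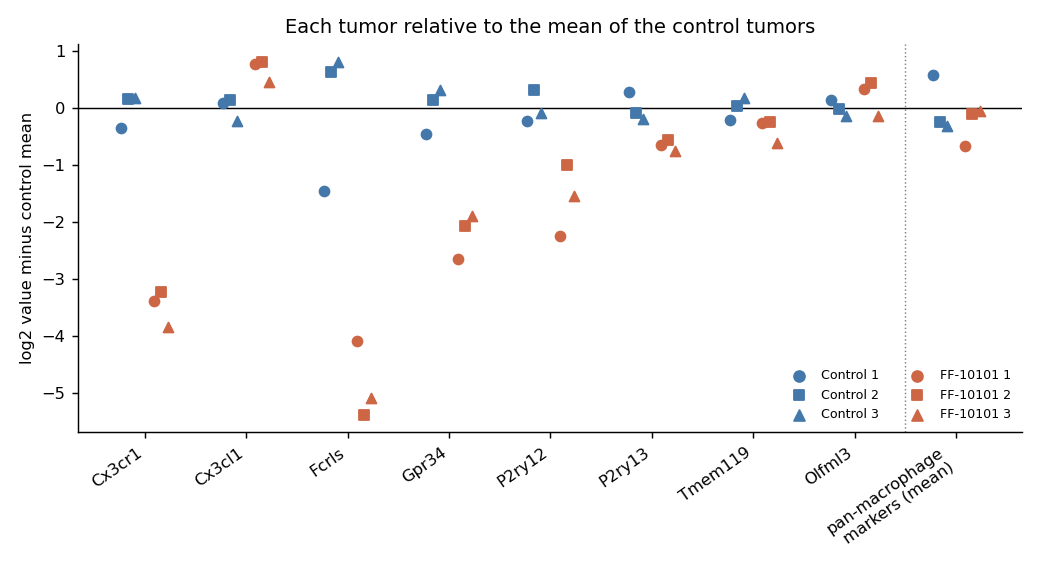
Log2(normalized count + 1) of each gene in each tumor minus the mean of the 3 control tumors, with the mean over 12 pan-macrophage markers at the right. Blue marks control and orange FF-10101–treated tumors. *Cx3cr1* of the treated tumors lies at -3.22 to -3.84, and control tumor 1 lies at -1.45 for *Fcrls* but at 0.58 for the pan-macrophage markers.

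Levels can be compared between genes only per transcript length, so normalized counts were divided by the length of the principal transcript in kilobases. In the control tumors the order of the means per kilobase was *Fcrls* (929.8 ± 570.0), *Tmem119* (739 ± 96.4), *Cx3cl1* (377 ± 48.4), *Cx3cr1* (242 ± 46.8), *Olfml3* (166 ± 16.4), *Gpr34* (158 ± 41.8), *P2ry12* (92.0 ± 18.6) and *P2ry13* (51.2 ± 9.07), each with its SD (n = 3). With its wide SD, *Fcrls* did not differ beyond the SDs from *Tmem119* or *Cx3cl1*, and neither did *Gpr34* from *Olfml3* or *Cx3cr1*. The control mean of *Fcrls* rests mostly on control tumors 2 and 3, with 2685 and 3025 normalized counts against 630.4 in control tumor 1. In the FF-10101–treated tumors *Cx3cl1* (603 ± 78.1) and *Tmem119* (571 ± 77.2) were at the top and within their SDs of each other, and *Olfml3* followed at 194 ± 39.1. The other 5 genes lay close together, from *Gpr34* (33.8 ± 8.66) through *P2ry13* (32.1 ± 2.23), *P2ry12* (31.7 ± 13.3) and *Fcrls* (27.9 ± 14.1) to *Cx3cr1* (21.5 ± 4.58), and no neighbors among these differed beyond their SDs. *Fcrls* thus had the highest mean of the 8 genes in the control tumors and the next to lowest in the treated tumors.

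**Figure D3:**
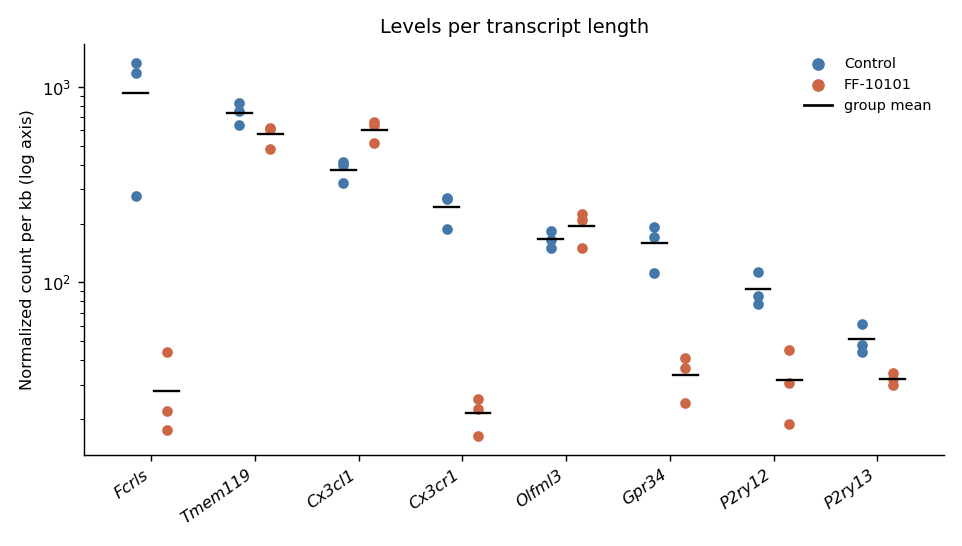
Normalized counts per kilobase of principal transcript (log axis) for the 8 genes, ordered by the control mean. Points are tumors and horizontal lines are group means (n = 3). *Fcrls* has the highest mean in the control tumors, 929.8, and 27.9 in the FF-10101–treated tumors, while *Tmem119* and *Cx3cl1* are at 571 and 603 in the latter.

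The 12 pan-macrophage markers differed far less than *Cx3cr1* and *Fcrls*. Their mean log2 level was 11.49 in the control and 11.21 in the FF-10101–treated tumors. The difference was -0.27, and the ranges overlap. Their summed normalized counts were 56668 to 90192 in the control and 32290 to 53769 in the FF-10101–treated tumors, without overlap, and *Lyz2*, the lysozyme gene, gave the largest part. Of the 12, 9 were lower and 3 higher, and 0 passed an adjusted p of 0.05 by limma or limma-voom. At an unadjusted p under 0.05, 3 were lower and 0 higher, where 7.49% of all genes tested were lower and 8.77% higher. Their median log2 fold change was -0.23, and it turned to 0.17 without control tumor 1. In that fit 1 was called lower and 1 higher, against 21.9% of all genes called in either direction. *Lyz2* had the largest difference, with a log2 fold change of -1.05 (SE 0.31, limma adjusted p = 0.229) and lower counts in 3 of 3 treated tumors. *Adgre1* and *Itgam* were also lower in 3 of 3, with log2 fold changes of -0.95 and -0.73 (SE 0.22 and 0.23, limma adjusted p = 0.229 and 0.235).

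Taken relative to these markers within each tumor, the log2 difference was -4.58 for *Fcrls*, -3.21 for *Cx3cr1*, -1.93 for *Gpr34*, -1.32 for *P2ry12* and -0.38 for *P2ry13*. It was -0.0998 for *Tmem119*, 0.48 for *Olfml3* and 0.95 for *Cx3cl1*. In control tumor 1, which had the highest marker level, *Cx3cr1* minus the marker mean was -2.34 log2 units, against -1.003 and -0.91 in control tumors 2 and 3 and -4.14, -4.54 and -5.22 in FF-10101 tumors 1, 2 and 3. Relative to the markers, the groups did not overlap for *Cx3cr1*, *Fcrls*, *Gpr34* and *P2ry12*, the treated tumors being the lower. For *P2ry12* the margin was narrow, with -4.54 in control tumor 1 against -4.63 in FF-10101 tumor 2. *Cx3cl1* did not overlap either, the treated tumors being the higher, at -0.82 in control tumor 2 against -0.71 in FF-10101 tumor 3. The share of all genes without overlap was not computed on this scale, so nothing is read from this. For *P2ry13*, *Tmem119* and *Olfml3* the groups overlapped on this scale.

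**Figure D4:**
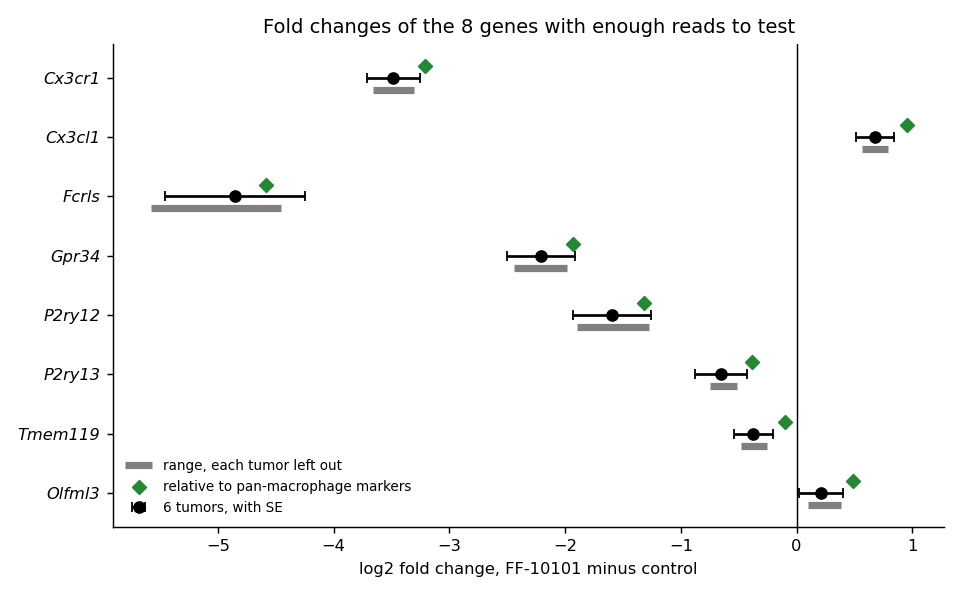
Log2 fold changes of the 8 genes (FF-10101 minus control). Black points give the value over 6 tumors with its standard error, grey bars the range when any 1 tumor is left out, and green diamonds the difference relative to the mean of 12 pan-macrophage markers. *Fcrls* and *Cx3cr1* lie furthest to the left in each reading, at -4.86 and -3.49 over 6 tumors, and *Cx3cl1* lies to the right of 0 at 0.68.

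The patterns over the 6 tumors were compared by the root mean square difference between log2 values centred on each gene's mean. From *Cx3cr1*, the distance was 0.73 to *Gpr34*, 0.98 to *Fcrls* and 1.02 to *P2ry12*, which ranked 3, 18 and 27 among all genes tested. It was 1.46 to *P2ry13*, 1.56 to *Tmem119*, 1.86 to *Olfml3* and 2.10 to *Cx3cl1*, which ranked 11891. From *Fcrls*, *Cx3cr1* was the nearest of all genes tested at 0.98, and *Gpr34* ranked 17 at 1.54. With 6 tumors in 2 groups this likeness rests mostly on the difference between the groups, and it is a description only.

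Outside the 9 genes, the nearest to *Cx3cr1*, given with no test since likeness chose them, were *Zan*, *Gm1673*, *Cbr2*, *1700003F12Rik* and *Gm21981*, at distances of 0.65, 0.67, 0.75, 0.85 and 0.87. *Cbr2*, the carbonyl reductase gene, was the most abundant of them, with 634.9, 1109.5 and 1110.4 normalized counts in the control tumors and 112, 109 and 269 in the FF-10101–treated tumors. It was lower in 3 of 3 treated tumors (log2 fold change -2.63, SE 0.39). The other 4 had means of 23.5 to 50.8 normalized counts in the control tumors and of 2.47 to 9.87 in the FF-10101–treated tumors.

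The nearest to *Fcrls* were *Gm6361*, *Gm1673*, *Nefm*, *Pnck* and *Cbr2*, at distances of 1.07, 1.25, 1.28, 1.32 and 1.37. *Gm6361*, a processed pseudogene whose reads can be split with its parent gene and are therefore uncertain, had 72.0, 70.6 and 108 normalized counts in the control tumors and 0 in each FF-10101–treated tumor. *Nefm*, a neurofilament gene, had 1.13 normalized counts in control tumor 1 and 31.5 and 83.2 in control tumors 2 and 3, against 0.76 to 1.09 in the treated tumors. *Pnck*, a calcium-calmodulin kinase gene, had 10.1, 65.2 and 84.3 in the control tumors and 4.34 to 9.78 in the treated tumors. In these last 2 genes, as in *Fcrls*, control tumor 1 was the lowest of the control tumors.

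Further microglial signature genes were a list of 26, of which 23 had enough reads. By limma and by limma-voom 0 of the 23 passed an adjusted p of 0.05, while 7 were lower and 1 higher at an unadjusted p under 0.05, where 7.49% of all genes tested were lower and 8.77% higher. Without overlap, 9 were lower and 1 higher, where 9.37% of all genes tested were lower and 10.9% higher. The median log2 fold change was -0.03, against 0.02 over all genes tested. *Serpine2*, a secreted protease inhibitor gene, had the largest value at 1.63 (SE 0.46, limma adjusted p = 0.229) with 268, 67.4 and 118 normalized counts in the control and 537, 373 and 319 in the FF-10101–treated tumors, higher in 3 of 3. *Hpgds*, the hematopoietic prostaglandin D synthase gene, had 226, 199 and 217 normalized counts in the control tumors and 55.8, 89.0 and 88.9 in the FF-10101–treated tumors, lower in 3 of 3. Its log2 fold change was -1.48 (SE 0.24, limma adjusted p = 0.175). Without control tumor 1, 10 of the 23 passed, where 21.9% of all genes did, 5 lower (*Bin1*, *Cd33*, *Ltc4s* and *Hpgds* among them) and 5 higher (*Selplg*, *Entpd1*, *Lag3*, *Serpine2* and *Abi3*).

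The fractalkine axis list held 12 genes for the proteases that release CX3CL1, the integrins it binds and the G proteins and regulators of its receptor, and each had enough reads. By limma and by limma-voom 0 passed, and at an unadjusted p 0 were lower and 2 higher, with a median log2 fold change of 0.16. The shedding proteases *Adam10* and *Adam17* had log2 fold changes of -0.10 and 0.22 (limma adjusted p = 0.758 and 0.610) with overlapping groups, *Adam10* being lower in mean and *Adam17* higher. *Gnai1*, an inhibitory G protein subunit gene, had the largest value at 1.33 (SE 0.52, limma adjusted p = 0.279) and *Itgb3*, the integrin β3 gene, had 0.80 (SE 0.32, limma adjusted p = 0.285). In both, control tumor 1 lay within the treated range, and 2 of 3 treated tumors were above every control tumor. When that tumor was left out, 4 of the 12 passed, against 21.9% of all genes, 1 lower (*Itgav*) and 3 higher (*Ctss*, *Itgb3* and *Gnai1*).

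The nucleotide and lysophosphatidylserine signaling list held 15 other receptors, ectoenzymes and the phospholipase that makes lysophosphatidylserine, of which 14 had enough reads and *P2ry4* had none. By limma and by limma-voom 0 passed, 1 was lower and 2 higher at an unadjusted p, and the median log2 fold change was 0.38 (0.61 without control tumor 1). *Gpr171* had 297, 125 and 135 normalized counts in the control tumors and 298, 522 and 589 in the FF-10101–treated tumors, higher in 3 of 3 but in FF-10101 tumor 1 only barely above control tumor 1 (log2 fold change 1.39, SE 0.38, limma adjusted p = 0.229). *Pla1a*, the phosphatidylserine-specific phospholipase gene, had 247, 80.4 and 92.1 and then 209, 282 and 492, so that the groups overlap (log2 fold change 1.32, SE 0.47, limma adjusted p = 0.255). With control tumor 1 left out, 5 of the 14 passed, against 21.9% of all genes, each higher (*Entpd1*, *P2ry14*, *P2rx4*, *Gpr171* and *Pla1a*). The single gene of this list that was lower without overlap was *P2ry6*, a receptor for UDP, at -0.66 (SE 0.24, limma adjusted p = 0.256, lower in 3 of 3 treated tumors).

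The families of *Fcrls*, *Slc2a5* and *Olfml3* were listed as well. With 6 of 13963 genes passing in all, a count of 0 in such short lists says little about them. Of 5 Fc receptor-like genes 2 had enough reads, *Fcrlb* at a log2 fold change of -0.54 (SE 0.26, limma adjusted p = 0.343, lower in 3 of 3 without overlap) and *Fcrla* at -0.28 (SE 0.41, limma adjusted p = 0.755), and 0 passed by either tool or at an unadjusted p. Of 9 hexose transport genes 8 had enough reads, with a median of -0.06, and 0 passed by either tool or at an unadjusted p. The largest values there were 0.75 for *Slc2a4* and 0.65 for *Slc2a10* (SE 0.60 and 0.44, limma adjusted p = 0.554 and 0.486), glucose transporter genes with overlapping groups. Of 6 olfactomedin genes 4 had enough reads, with a median of 0.23, and 0 passed by either tool, with 1 higher at an unadjusted p. This was *Olfml1*, with 11.3, 3.26 and 6.66 normalized counts in the control and 7.64, 47.8 and 50.7 in the FF-10101–treated tumors (log2 fold change 1.92, SE 0.80, limma adjusted p = 0.295), and *Olfml2a* followed at 0.23 (SE 0.26, limma adjusted p = 0.682).

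TGF-β maintains the expression of several microglial genes, so 12 genes of its signaling were listed, and each had enough reads. By limma and by limma-voom 0 passed, 0 did at an unadjusted p, and the median log2 fold change was 0.11. *Itgb8*, an integrin gene that activates TGF-β, had 0.44 (SE 0.24, limma adjusted p = 0.388) and was higher in 3 of 3 treated tumors. *Nrros*, which anchors latent TGF-β on myeloid cells, had -0.40 (SE 0.25, limma adjusted p = 0.437) with overlapping groups. Control tumor 1 aside, 1 of the 12 passed, against 21.9% of all genes, namely *Itgav*, which is also in the fractalkine axis list.

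**Figure D5:**
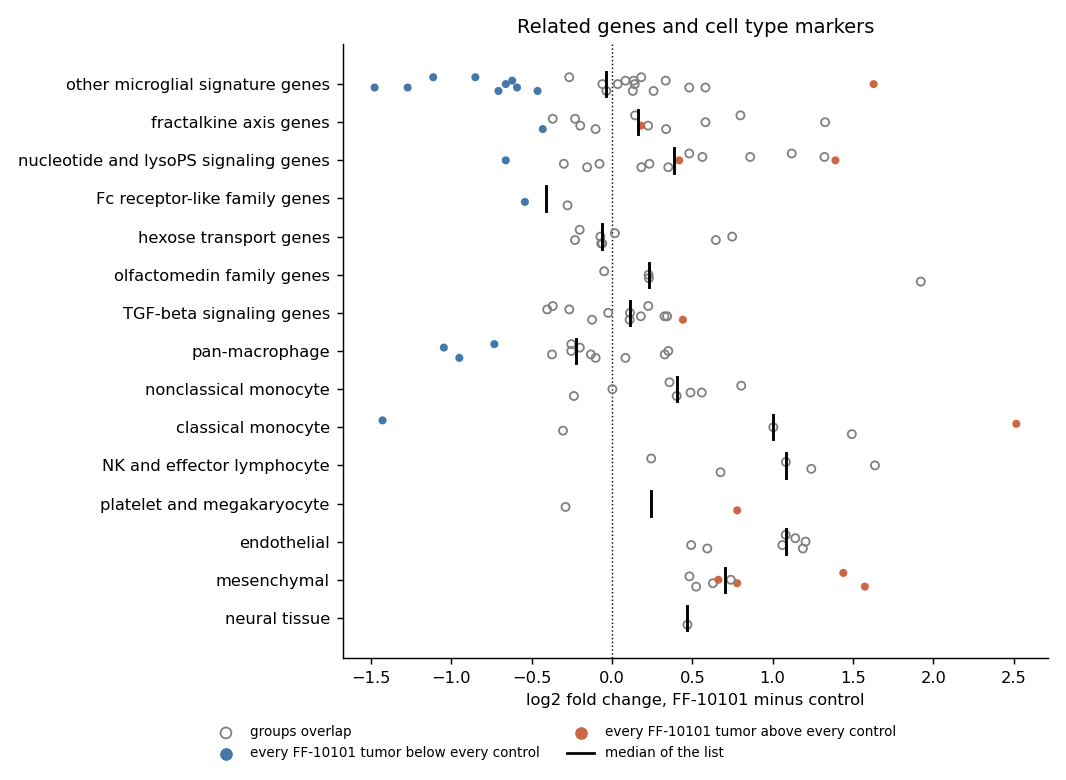
Log2 fold changes (FF-10101 minus control) of the tested genes in each related list and each marker list. Filled points are genes whose groups do not overlap, blue for lower and orange for higher in the FF-10101 group, and black lines are list medians. The further microglial genes spread on both sides of 0, from -1.48 to 1.63, while the 7 endothelial and 8 mesenchymal markers all lie above 0.

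Markers of other cells that can express these genes were listed too, and with all 6 tumors 0 genes of these lists passed an adjusted p of 0.05 by limma or limma-voom. Of 7 nonclassical monocyte markers, cells known for high *Cx3cr1*, 6 were higher and 1 lower, none of the 7 without overlap, with a median log2 fold change of 0.40 (0.77 without control tumor 1, with 3 then called higher) and summed normalized counts of 1940 to 4347 in the control and 2633 to 4180 in the FF-10101–treated tumors. *Spn* had the largest difference at 0.80 (SE 0.40, limma adjusted p = 0.357, above 2 control tumors in each treated tumor). Of 5 classical monocyte markers, 3 were higher and 2 lower with a median of 1.004 (1.52 without control tumor 1, with 3 then called higher and 1 lower) and summed counts of 3981 to 7541 and 3936 to 8841. The largest difference was that of *Chil3* (2.52, SE 0.66, limma adjusted p = 0.229, higher in 3 of 3), and *F13a1* was lower in 3 of 3 treated tumors without overlap (-1.43, SE 0.35, limma adjusted p = 0.229). NK and effector lymphocytes can carry CX3CR1 as well, and 5 of 5 tested markers out of 6 were higher, with a median of 1.08 (1.62 without control tumor 1, with 4 then called higher) and summed counts of 526 to 2313 and 1953 to 3621, *Gzma* having 1.64 (SE 0.55, limma adjusted p = 0.245, above every control tumor in 2 of 3). The counts without control tumor 1 stand against 21.9% of all genes called in that fit. The part of these cells in the *Cx3cr1* values was not tested.

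Endothelial and mesenchymal cells are known sources of *Cx3cl1*, *Olfml3* and *Tmem119*. The 7 endothelial markers were higher, 7 of 7, with a median log2 fold change of 1.08 (1.58 without control tumor 1) and summed counts of 2122, 2553 and 6207 in control tumors 3, 2 and 1 against 6172 to 6684 in the FF-10101–treated tumors. *Kdr*, the VEGF receptor 2 gene, had the largest difference at 1.20 (SE 0.48, limma adjusted p = 0.290), and control tumor 1 was above 2 of the 3 treated tumors. The 8 mesenchymal markers were higher, 8 of 8, with a median of 0.70 (1.11 without control tumor 1) and summed counts of 52369 to 141969 against 104595 to 180058, *Lum* having 1.57 (SE 0.41, limma adjusted p = 0.229, higher in 3 of 3). If control tumor 1 was left out, 7 of 7 endothelial and 6 of 8 mesenchymal markers passed, each higher, against 21.9% of all genes in either direction. The part of these cells in the values of *Cx3cl1*, *Olfml3* and *Tmem119* was not tested. MCA205 is itself a fibrosarcoma line. Whether the reads of the mesenchymal markers and of these 3 genes came from host cells or from the tumor cells was not tested either. Of 4 osteoblast markers none had enough reads, with *Bglap* and *Ibsp* at 0 in every tumor and summed counts of 1.13 to 3.33 in the control and 2.17 to 4.58 in the FF-10101–treated tumors, against at least 1081 for *Tmem119* in each tumor.

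Of 6 platelet markers 2 had enough reads, *Itga2b* at 0.78 (SE 0.31, limma adjusted p = 0.290, higher in 3 of 3) and *Ppbp* at -0.29 (SE 1.16, limma adjusted p = 0.919), whose groups overlap. Of 5 neural markers 1 had enough reads, *Mbp*, with 374, 128 and 175 normalized counts in the control tumors and 157, 304 and 468 in the FF-10101–treated tumors (log2 fold change 0.47, SE 0.48, limma adjusted p = 0.646). The summed neural level was 135 to 382 in the control and 164 to 481 in the FF-10101–treated tumors, nearly all of it from *Mbp*.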

How the data were processed

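Bulk RNA was extracted from 3 control and 3 FF-10101–treated MCA205 tumors, grouped by their labels. The authors trimmed the reads with fastp (version 0.19.5), quantified them with Salmon (version 1.5.1) on GENCODE vM27 and tested genes with DESeq2 (version 1.22.1). The deposited values are on a log2 scale, of the form that the variance-stabilizing transformation in DESeq2 gives for the authors' counts. A design for normalized counts had been written, so that transformation was inverted, and 100% of the values then came out within 0.001 of a whole number of reads. Total reads were 9143806 to 13258258 per tumor. Reads were divided by the recovered size factors, and genes with few reads are the least precise.

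The groups were compared with limma (version 3.58.1, R version 4.3.3, lmFit and eBayes with a trend) on log2(normalized count + 1), a scale that shrinks differences of low genes. The model held the group alone and covered 13963 genes with a mean of at least 10, and genes were called under a Benjamini-Hochberg adjusted p of 0.05 over all of them. The limma fit alone was tested on simulated reads, which held no outlying tumor such as control tumor 1. Symbols for 51484 identifiers, transcript lengths, exon overlaps and 31-base matches came from GENCODE vM21 (GRCm38), which differs from the build of vM27, so coordinates are given only for RefSeq promoter sequences.

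The 9 genes and all lists were chosen with earlier results of these data known. The named genes are these 9, in each related list every called gene and the 2 with the largest absolute log2 fold change, in each marker list the tested gene with the largest, and the 5 genes nearest in pattern to *Cx3cr1* and to *Fcrls*. Genes named outside this rule were chosen after their values were seen. They are those called without control tumor 1, *Adam10*, *Adam17*, *F13a1*, *Itgam*, *Ppbp*, *Syt1*, *Slc1a2*, *P2ry6*, *P2ry14* and *Med12l*, and markers listed at or near 0.
The values of 1 listed gene are not reported here. Alternatives were other pseudocounts, minimum counts, scalings and tools, the replicate number as a block, the deposited values themselves and each tumor left out. Pan-macrophage scaling and the count of genes without overlap were added after seeing the data.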

Additional observations from a re-analysis of the deposited data

How the results depend on the processing

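The log2 fold changes of the 8 genes kept their sign in each of the alternatives and with each tumor left out. Minimum counts, the trend and the block cannot move these values in a balanced design. Among the alternatives that can, 6 values moved by more than the SD between replicates (log2 values, pooled over the groups), -3.05 for *Cx3cr1* and -1.75 for *Gpr34* on the deposited log2 values, whose transformation shrinks low counts, and, relative to the pan-macrophage markers, 0.95 for *Cx3cl1*, -0.38 for *P2ry13*, -0.0998 for *Tmem119* and 0.48 for *Olfml3*. With each tumor left out in turn, the log2 fold change was -5.58 to -4.45 for *Fcrls*, -3.66 to -3.31 for *Cx3cr1*, -2.44 to -1.99 for *Gpr34*, -1.90 to -1.27 for *P2ry12*, -0.75 to -0.52 for *P2ry13*, -0.48 to -0.26 for *Tmem119*, 0.097 to 0.39 for *Olfml3* and 0.57 to 0.79 for *Cx3cl1*.

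The number of genes passing over all genes tested was 6. It was 17 with no minimum count, where *Fcrls* and *Gpr34* passed beside *Cx3cr1*, and 3 with a mean of at least 50. With a tumor left out it was 1 to 3051, the highest without control tumor 1 and the lowest without control tumor 2. The count was 0 to 10 for further microglial genes, 0 to 4 for fractalkine axis genes, 0 to 5 for nucleotide and lysophosphatidylserine signaling genes and 0 to 1 for TGF-β signaling genes, in each the highest without control tumor 1. The cause was not tested. The genes whose groups do not overlap numbered 2826 with all tumors and 7556 without control tumor 1. The median of the pan-macrophage markers turned from -0.23 to 0.17 without control tumor 1, and that of the 2 platelet markers lay between -0.26 and 0.99 with a tumor left out.

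The replicate numbers are shared by the groups, but the deviations of same-numbered tumors correlated at -0.29, -0.04 and -0.28 for numbers 1, 2 and 3, and no tumor correlated best with its own number, so the numbers were not taken to pair the tumors. With the replicate block, 1 gene passed over all genes tested and 0 of the 8 did. The 3 tumors in each group limit the precision, and genes with few reads, such as *Slc2a5* and *Sall1*, cannot be compared at this depth.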
